A study of Homo sapiens with 8 samples.

Results

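The G1/S switch is the set of proteins that decides whether a cell leaves the first gap phase and begins DNA synthesis. It was followed here through 10 genes chosen by symbol: CCNE1, CCNE2, CDK2, CDKN1A, CDKN1B, RB1, E2F1, E2F3, FBXW7 and CCND1. All probes whose identifier the platform annotation pairs with 1 of these symbols were taken, which gave 17 probes for the 10 genes. The choice of probes used no intensity. Of the 10 genes, 9 were detected and entered a comparison of 17297 genes in all, while CCNE2 was not detected. Of the 17297, 12222 have a symbol. Each of the others is a detected probe that the annotation does not pair with 1 symbol, counted here as a gene.

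Messenger RNA was profiled in OVCAR-3, an established line of human ovarian carcinoma cells, on 8 single-colour Illumina arrays. The siHBO1 group (4 arrays, replicates 1 to 4) received siRNA against HBO1, a histone acetyltransferase whose gene symbol is KAT7, and the siCTRL group (4 arrays, replicates 1 to 4) received scramble siRNA. Both groups are the same purchased line, kept in RPMI-1640 medium and transfected in multi-well plates, and RNA was taken after 48 h. Nothing in the labels tells whether the replicates were grown apart from one another. The tests below therefore rest on array-to-array spread alone, which may be technical.

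In the textbook account, cyclin D with CDK4 or CDK6 begins to phosphorylate the retinoblastoma protein, and cyclin E with CDK2 completes it. Phosphorylated retinoblastoma protein lets go of E2F factors, which then switch on genes of DNA synthesis, the genes for cyclin E and E2F1 among them. The inhibitors p21 and p27 hold cyclin E with CDK2 in check, and the F-box protein FBXW7 marks cyclin E for destruction. OVCAR-3 is known as a line with extra copies of CCNE1.

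E2F1 showed the largest difference among the 9 genes in the comparison of all 8 arrays (not in every alternative). CCNE1 was the 1 gene whose groups did not overlap after normalization. For these reasons the DNA just upstream of both is shown, with that of E2F3 for comparison. Each run is the 120 bases before the RefSeq start site in build GRCh38.p14, 5′ to 3′ on the strand of the gene. Capitals mark a match to an E2F site, searched as TTTGGCGC, TTTCCCGC, TTTGCCGC or TTTCGCGC on both strands.
E2F1, chr20:33686386-33686505, minus strand: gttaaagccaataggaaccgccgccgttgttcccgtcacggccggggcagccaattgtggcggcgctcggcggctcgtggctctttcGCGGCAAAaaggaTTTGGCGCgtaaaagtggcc
E2F3, chr6:20401759-20401878, plus strand: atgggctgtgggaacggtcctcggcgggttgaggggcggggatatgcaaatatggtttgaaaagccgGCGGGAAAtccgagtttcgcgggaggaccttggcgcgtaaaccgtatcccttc
CCNE1, chr19:29811871-29811990, plus strand: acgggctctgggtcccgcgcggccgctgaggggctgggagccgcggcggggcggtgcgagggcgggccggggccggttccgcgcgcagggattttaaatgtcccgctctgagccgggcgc

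The E2F1 window held 2 matches, 33 to 26 and 20 to 13 bases before the start, which do not overlap. The E2F3 window held 1, at 53 to 46 bases before the start (a second E2F3 start site in the table has none), and in the CCNE1 window these letters do not occur. RefSeq sequences were at hand for 7 of the 10 genes, in 11 windows, of which these 2 held a match. Among all 35116 windows of the same length, 490 (1.4%) held one. A match describes the letters and is not a measured binding site. Likewise, a window without these exact letters is not shown to lack an E2F site.

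Per array, between 20504 and 22111 probes were detected, 43.3% to 46.7% of all probes, and the median intensity ran from 224 to 324. Both replicate 1 arrays stood apart on the first principal component, which held 58.2% of the variance, with scores of 49.7 in siHBO1 and 44.8 in siCTRL against -11.9 to -19.2 on the other 6 arrays. KAT7, the targeted gene, had normalized log2 intensities of 6.66, 6.86, 7.04 and 7.43 on the arrays labelled siHBO1 replicates 1 to 4, against 7.67, 7.97, 7.93 and 7.35 on siCTRL replicates 1 to 4. The array labelled siHBO1 replicate 4 thus lay within the siCTRL range, and values without it are given below for CCNE1, CDKN1B, CCND1, E2F1, E2F3 and the interferon-stimulated list. The KAT7 probe was dim, at 1.4 to 2.24 times the median of probes at background on the same array. The KAT7 difference was -0.73 (SE 0.19, limma adjusted p = 0.586, and 0.381 with the replicate number as a block). It was -0.33 without background correction (limma adjusted p = 0.758) and -0.87 without the array labelled siHBO1 replicate 4 (limma adjusted p = 0.464). Without both replicate 4 arrays it was -1.0, with a limma adjusted p of 0.455 and, with the block, 0.0435; this last was the 1 of 22 alternatives in which KAT7 passed. Epithelial and ovarian markers matched the label: 12 of 14, PAX8, WT1, EPCAM and MUC16 among them, were detected on all 8 arrays, while the oestrogen receptor gene ESR1 was detected on none. Of markers of other cell types, 7 of 10 fibroblast, 5 of 9 immune and 4 of 6 endothelial genes were detected on no array, PTPRC, PDGFRB and PECAM1 among them. Detected on all 8 arrays were the fibroblast marker COL1A1 (log2 level 7.25 to 8.32), the immune markers CD14 (8.53 to 9.41) and CD68 (10.09 to 12.31) and the endothelial marker VWF (7.31 to 8.22); their part in the results was not tested. In RNA from a whole culture, a change in the share of cells in a cycle phase and a change of RNA per cell cannot be told apart.

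None of the 9 detected switch genes passed the test between siHBO1 and siCTRL. The count was 0 of 9 by limma (adjusted p under 0.05 over all genes), where 0.0347% of all 17297 genes passed, and again 0 of 9 with the replicate block, where 0.335% passed. At an unadjusted p under 0.05 there was 1 of 9 (CCNE1), against 3.79% of all genes, and with the block 2 of 9 (CCNE1 and E2F1), against 7.6%. After normalization, groups did not overlap for 1 of 9 genes, CCNE1, and for 2.82% of all genes. Differences of 6 genes were positive and of 3 negative, with a median of 0.07 on the log2 scale, beside a median of -0.01 over all genes tested. Fitted probe by probe, 0 of 13 detected probes of these genes passed, as did 0% of 21377 probes, and with the block 0 of 13, against 0.323%.

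**Figure D1:**
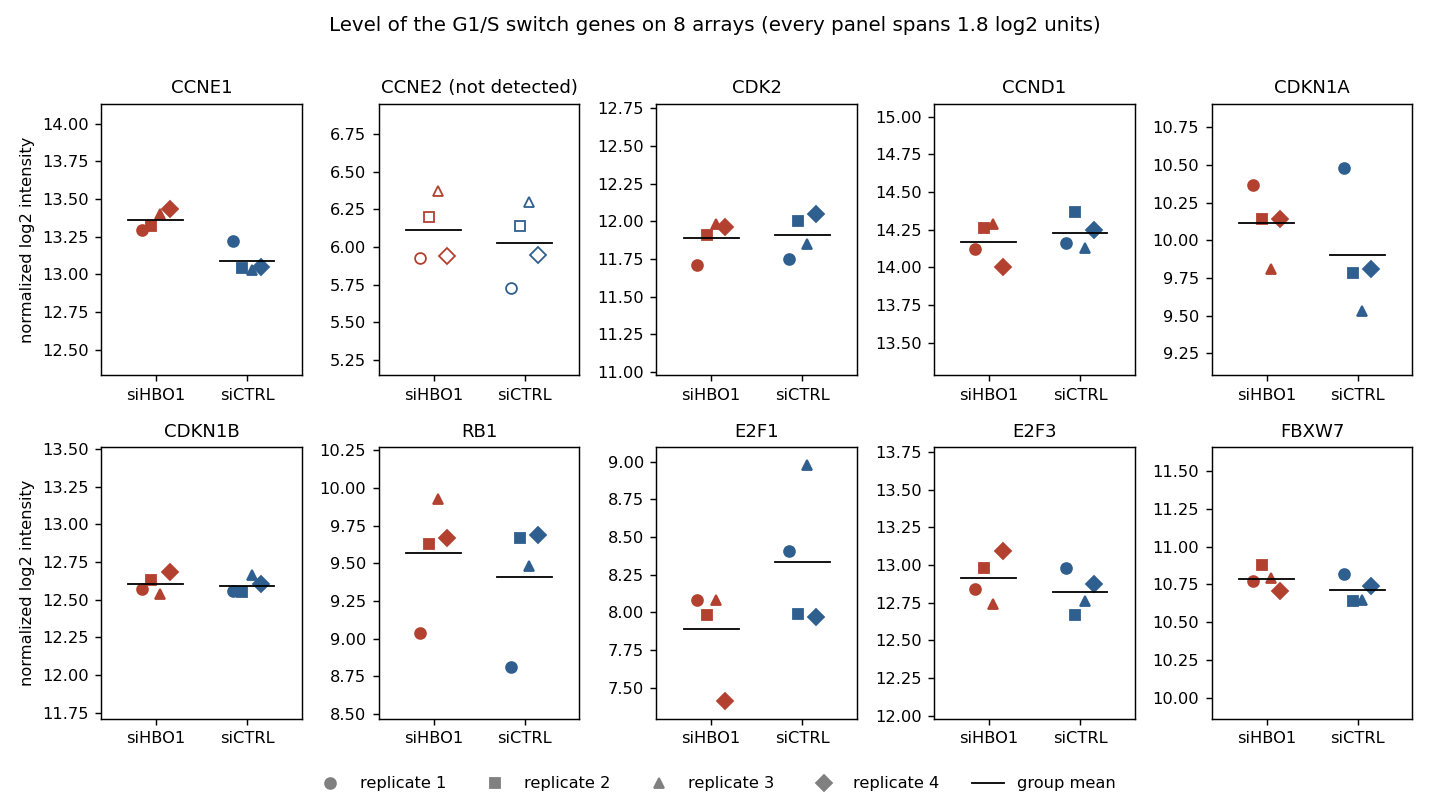
Normalized log2 intensity of the 10 genes on each array, siHBO1 left and siCTRL right in every panel; symbols give the replicate number and lines the group means. CCNE1 is the gene whose 4 siHBO1 arrays (13.29 to 13.43) all lie above the 4 siCTRL arrays (13.03 to 13.22), and RB1 is lowest on the replicate 1 array of both groups; open symbols mark CCNE2, detected on no array.

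CCNE1 encodes cyclin E1, the cyclin that activates CDK2 at the start of S phase. Its bright probe ILMN_2374425 read 8192, 10540, 12052 and 12814 intensity units on siHBO1 replicates 1 to 4, against 7020, 9929, 9442 and 9659 on siCTRL replicates 1 to 4, as deposited and before any correction. That is 39.9 to 55.4 times the median of probes at background on the same array, with a detection p of 0 on all 8 arrays. The transcript was thus far above background in both groups; brightness is not compared with other genes, since probes differ in how they hybridise.

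After normalization the same CCNE1 probe stood at 13.29, 13.32, 13.40 and 13.43 on the log2 scale in siHBO1 replicates 1 to 4, against 13.22, 13.04, 13.03 and 13.05 in siCTRL replicates 1 to 4. Every siHBO1 array was above every siCTRL array, with the narrowest gap, 0.07, within pair 1; the other pairs differed by 0.28, 0.37 and 0.38. As deposited, the groups overlapped: siHBO1 replicate 1 (8192) was below siCTRL replicates 2 to 4 (9929, 9442 and 9659). Without normalization between arrays the difference was 0.27 (SE 0.23, limma unadjusted p = 0.245). The siHBO1 mean was 13.36 ± 0.07 and the siCTRL mean 13.09 ± 0.09 (SD, n = 4 each). The log2 difference was 0.27 (SE 0.09, 95% confidence interval 0.06 to 0.48), or 1.21-fold. It did not pass (limma adjusted p = 0.99, unadjusted p = 0.017; with the block adjusted p = 0.523), and it was 0.25 without the array labelled siHBO1 replicate 4, 0.24 without both replicate 4 arrays and 0.34 without both replicate 1 arrays.

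The other CCNE1 probe, ILMN_1733419, is annotated to the same transcript and was dim, at 1.7 to 2.37 times background. It stood at 7.71, 7.90, 7.71 and 8.0 in siHBO1, against 7.73, 7.19, 7.19 and 7.87 in siCTRL, and the groups overlapped. Its difference was 0.34 (SE 0.18, 95% confidence interval -0.06 to 0.73; limma adjusted p = 1.00), higher in 3 of 4 pairs. Both probes of the gene therefore gave a positive estimate of like size, and 1 of them an interval that includes 0.

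CCNE2 encodes cyclin E2, the close relative that can also activate CDK2. Its 1 probe was detected on 0 of 4 siHBO1 and 0 of 4 siCTRL arrays, with detection p-values between 0.0857 and 0.708. Intensities lay at 1.00 to 1.34 times background, so no difference is given.

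CDK2, the kinase that cyclin E activates, read 11.71, 11.91, 11.98 and 11.96 in siHBO1, against 11.75, 12.00, 11.85 and 12.05 in siCTRL, on probe ILMN_1665559. The groups overlapped throughout, and the replicate 1 array was the lowest of each. The difference was -0.02 (SE 0.11, limma adjusted p = 1.00), and its 95% confidence interval of -0.27 to 0.23 bounds a change in either direction. The dimmer CDK2 probe ILMN_1653443, at 1.85 to 2.69 times background, gave 0.16 (SE 0.21, 95% confidence interval -0.31 to 0.62), so the probes differed in sign and neither interval left out 0.

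CCND1 encodes cyclin D1, which acts with CDK4 and CDK6 upstream of cyclin E. Its 1 probe was read at 75.2 to 97.2 times background, with a detection p of 0 on every array. Normalized levels were 14.12, 14.26, 14.29 and 14.00 in siHBO1, against 14.16, 14.37, 14.13 and 14.25 in siCTRL. The lowest value belonged to the array labelled siHBO1 replicate 4, and the groups overlapped. The difference was -0.06 (SE 0.11, 95% confidence interval -0.30 to 0.18; limma adjusted p = 1.00), and it rounded to 0 without the array labelled siHBO1 replicate 4 and without both replicate 4 arrays.

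**Figure D2:**
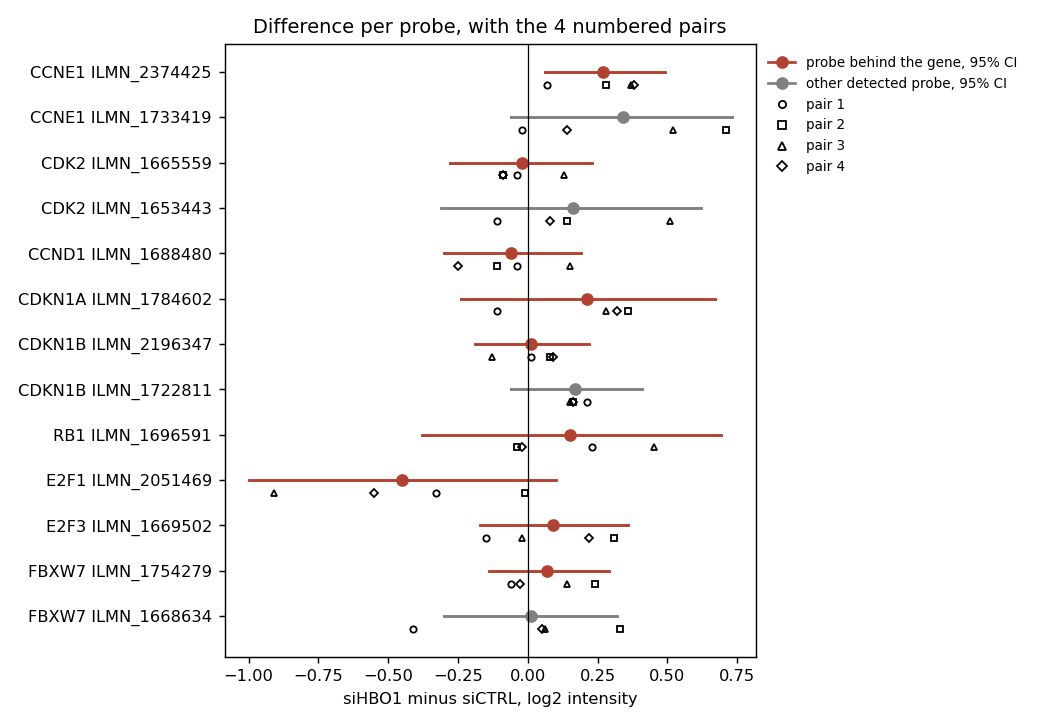
Difference between siHBO1 and siCTRL (horizontal axis, log2 intensity) for the 13 detected probes of the 9 genes, with 95% confidence intervals from limma; small open symbols are the differences within the numbered pairs. The interval of the bright CCNE1 probe (0.06 to 0.49 in this fit by probe) is the 1 interval that lies wholly on one side of 0, and the E2F1 probe has the widest spread between pairs (-0.91 to -0.01).

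CDKN1A encodes p21, an inhibitor of CDK2. The probe ILMN_1784602 read 10.37, 10.14, 9.81 and 10.14 in siHBO1, against 10.48, 9.78, 9.53 and 9.81 in siCTRL. Replicate 1 held the highest value of both groups, and siCTRL replicate 1 was above every siHBO1 array, whereas pairs 2, 3 and 4 were higher in siHBO1 by 0.36, 0.28 and 0.32. Over all arrays the difference was 0.21 (SE 0.20, 95% confidence interval -0.25 to 0.67; limma adjusted p = 1.00). It was 0.41 without siCTRL replicate 1 (limma adjusted p = 0.985, unadjusted p = 0.0249) and 0.32 without both replicate 1 arrays (limma adjusted p = 0.704), but 0.13 without siHBO1 replicate 1 and 0.09 without siCTRL replicate 3. The other CDKN1A probe, ILMN_1787212, annotated to accession NM_078467, was detected on no array.

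CDKN1B encodes p27, the other main inhibitor of cyclin E with CDK2. Its brighter probe ILMN_2196347 read 12.57, 12.63, 12.54 and 12.68 in siHBO1, against 12.56, 12.55, 12.66 and 12.60 in siCTRL. These 8 values span 0.15 log2 units, the narrowest range of the 13 detected probes, and the groups overlapped. The difference was 0.01 (SE 0.09, 95% confidence interval -0.19 to 0.21; limma adjusted p = 1.00), and -0.01 without the array labelled siHBO1 replicate 4. The second CDKN1B probe, ILMN_1722811, was annotated to the same transcript and stood at 11.41, 11.57, 11.51 and 11.64 in siHBO1, against 11.20, 11.40, 11.36 and 11.47 in siCTRL. It was higher in all 4 pairs, by 0.21, 0.16, 0.15 and 0.16, although the groups overlapped, and its difference of 0.17 (SE 0.10; limma adjusted p = 1.00, and 0.756 with the block) did not pass.

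RB1 encodes the retinoblastoma protein, the brake on E2F factors that cyclin-dependent kinases release. Its 1 probe, at 3.01 to 5.56 times background, read 9.04, 9.63, 9.93 and 9.67 in siHBO1, against 8.81, 9.67, 9.48 and 9.69 in siCTRL. The transcript was thus detected on all 8 arrays, and the replicate 1 array was the lowest of both groups. Pairs 1 and 3 were higher in siHBO1, by 0.23 and 0.45, and pairs 2 and 4 differed by -0.04 and -0.02. The difference was 0.15 (SE 0.24, 95% confidence interval -0.39 to 0.69; limma adjusted p = 1.00). It turned to -0.05 without siCTRL replicate 1 and was 0.33 without siHBO1 replicate 1.

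E2F1 encodes an activating E2F factor whose own gene is known as an E2F target and whose upstream sequence above held both matches. Its 1 probe was dim, at 1.97 to 3.40 times background, and read 8.08, 7.98, 8.08 and 7.41 in siHBO1, against 8.41, 7.99, 8.98 and 7.97 in siCTRL. All 4 pairs were lower in siHBO1, pair 2 by only 0.01 and pairs 1, 3 and 4 by 0.33, 0.91 and 0.55 on the log2 scale, and the groups overlapped. The siHBO1 mean was 7.89 ± 0.32 and the siCTRL mean 8.34 ± 0.48 (SD, n = 4 each). The difference was -0.45 (SE 0.24, 95% confidence interval -1.0 to 0.10; limma adjusted p = 1.00), or 1.37-fold lower in siHBO1. With the block the unadjusted p was 0.0183 and the limma adjusted p was 0.491. The size depended on single arrays and on the background correction. It was -0.24 without siCTRL replicate 3 and -0.29 without the array labelled siHBO1 replicate 4. With all arrays but no background correction it was -0.26.

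E2F3 encodes another activating E2F factor. Its 1 probe, at 31.1 to 43.9 times background, stood at 12.84, 12.98, 12.74 and 13.09 in siHBO1, against 12.98, 12.67, 12.76 and 12.87 in siCTRL. The groups overlapped, with 2 pairs higher and 2 lower. The difference was 0.09 (SE 0.12, 95% confidence interval -0.17 to 0.35; limma adjusted p = 1.00), and 0.03 without the array labelled siHBO1 replicate 4. Neither E2F gene passed; the difference between them was not tested.

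FBXW7 encodes the substrate receptor of the ubiquitin ligase that degrades cyclin E. It had 4 probes, of which 2 annotated to accession NM_033632 were detected on all 8 arrays. The brighter one, ILMN_1754279, read 10.77, 10.88, 10.79 and 10.71 in siHBO1, against 10.82, 10.64, 10.65 and 10.74 in siCTRL, a difference of 0.07 (SE 0.09, 95% confidence interval -0.14 to 0.28; limma adjusted p = 1.00). The groups overlapped, and the dimmer probe ILMN_1668634 gave 0.01 (95% confidence interval -0.30 to 0.32). The probe annotated to NM_018315 was detected on 1 of 4 siHBO1 and 2 of 4 siCTRL arrays, and that annotated to NM_001013415 on none.

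Genes that act beside the switch were described through lists. Of all genes tested, 0.0347% passed without the block and 0.335% with it. A count of 0 in a short list is near those shares. Among 15 tested cyclins, CDKs and their regulators, 0 passed with or without the block (median 0.11, 11 positive and 4 negative). CCNA1, a second A-type cyclin known mainly from germ cells, was the member with the smallest p. Its mean was 11.04 (SD 0.15) over siHBO1 arrays, against 10.64 (SD 0.14) over siCTRL arrays. The CCNA1 difference was 0.40 (SE 0.12, limma adjusted p = 0.738), with groups that did not overlap, which held for 2.82% of all genes. The CDK-inhibiting kinase gene WEE1 stood at 0.19 and CDC25A, which encodes a phosphatase that activates CDK2, at 0.20. Of 5 tested further CDK inhibitors 0 passed (median -0.09), with CDKN1C, the gene of p57, at -0.22, CDKN2D at -0.12 and CDKN3 at -0.09.

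Pocket proteins, E2F and DP factors and their partners had 0 of 15 members past the threshold, with and without the block. Of all genes, 0.335% and 0.0347% passed. The median of the list was 0.00. RBL2, which encodes the pocket protein p130, stood at 0.24 (SE 0.14), E2F5 at 0.14 and the histone chaperone gene RBBP4 at -0.26. Genes for the turnover of cyclin E and CDK inhibitors had 0 of 14, with 10 negative and a median of -0.05. FZR1, an activator of the anaphase-promoting complex, stood at -0.16, CKS1B, the cofactor for p27 destruction, at -0.11 and CUL4A at -0.06.

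Targets of E2F gave no call. Of 42 tested target genes of the G1/S transition, 0 passed with or without the block. That is near the shares of all genes, 0.335% and 0.0347%. The groups overlapped for all 42, while they did not overlap for 2.82% of all genes. Of the 42, 26 were positive and 16 negative, and the median was 0.03. RRM2, a subunit of ribonucleotide reductase, stood at 0.36 (SE 0.19; limma adjusted p = 1.00), the DNA ligase gene LIG1 at 0.19 and CDCA7 at -0.15. Over these 42 genes the mean level per array ran from 11.26 to 11.50 in siHBO1 and from 11.27 to 11.44 in siCTRL. In G2 and mitosis 0 of 25 genes passed (median -0.03), with the mitotic kinase gene AURKA at -0.24, KIF20A at -0.25 and FOXM1 at -0.19.

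Upstream regulators gave no call. Of 24 regulators of cyclin D1, p21 and p27 transcription 0 passed (median 0.04), near the share of 0.0347% of all genes. The members with the smallest p were ID3, an inhibitor of DNA binding, at 0.36, the AP-1 subunit gene JUNB at 0.41 and its partner FOS at 0.25. The interferon-stimulated list, like the others, was chosen with earlier results of these data known. In it 5 of 26 genes passed, against 0.0347% of all genes, and 18 with the block, against 0.335%. The list median was 1.35 and all 26 were positive. These 5 genes were the viral RNA sensor gene RIGI (1.10), the transcription factor gene IRF7 (0.97), PARP14 (0.89) and the chemokine genes CXCL10 (1.76) and CXCL11 (0.89), each with a limma adjusted p of 0.0442. A further 13 passed in the fit with the block but not in the same fit without it. Their limma adjusted p-values with the block were 0.00445 to 0.0384: OAS2 (2.58), TRIM22 (2.07), IFI44L (1.86), IFITM1 (1.74), RSAD2 (1.64), BST2 (1.54), IFIT3 (1.48), DDX60 (1.41), SAMD9L (1.40), OAS1 (1.33), IFI44 (1.25), OASL (1.18) and IFIH1 (1.06). Leaving out any 1 array, siHBO1 or siCTRL, took the 5 calls to between 0 and 2, while the list median stayed between 1.06 and 1.55 with all 26 positive. Without the array labelled siHBO1 replicate 4 the median was 1.31 and 0 passed, as was also so without any 1 of siHBO1 replicates 2 and 3 or siCTRL replicates 2, 3 and 4. The mean of that list per array was 11.15 to 11.58 in siHBO1 and 9.31 to 10.45 in siCTRL, and its part in the values of the switch genes was not tested.

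**Figure D3:**
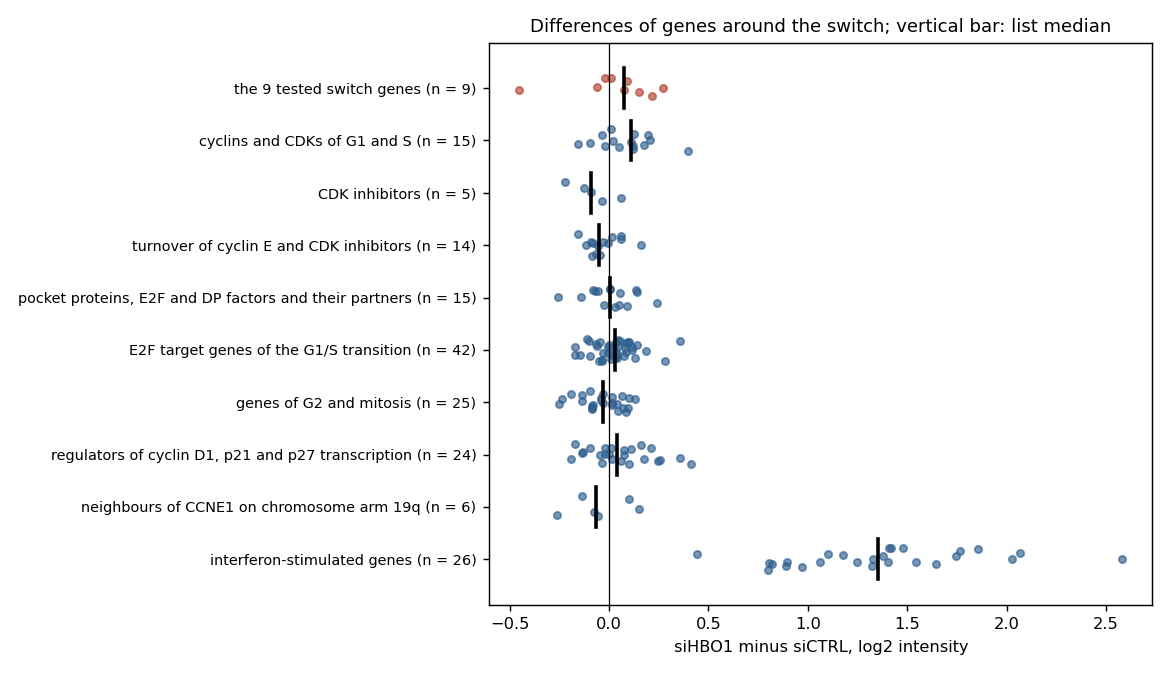
Differences between siHBO1 and siCTRL (horizontal axis, log2 intensity) for the 9 tested switch genes and for the members of 9 lists, 1 point per gene, with the list median as a vertical bar. Medians of the cell cycle lists lie between -0.09 and 0.11, whereas the interferon-stimulated list lies at 1.35.

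CCNE1 lies on chromosome 19 at 29811991 to 29824312 (GRCh38.p14, names and places from RefSeq). Of 12 listed genes of the same chromosome arm, 8 had a listed probe and 6 were tested. Of these 6, 0 passed, near the share of 0.0347% of all genes. Estimates of 2 were positive and of 4 negative, and the median was -0.06. C19orf12, at 29698886 to 29715789, had a mean of 13.80 (SD 0.05) over siHBO1 arrays, against 13.87 (SD 0.08) over siCTRL arrays, a difference of -0.07 (SE 0.09). POP4, a subunit gene of RNase P at 29606283 to 29617237, had a mean of 13.54 (SD 0.16) over siHBO1 arrays, against 13.59 (SD 0.07) over siCTRL arrays, a difference of -0.05 (SE 0.11). PLEKHF1, at 29665461 to 29675477, had a difference of -0.26 (SE 0.16, 95% confidence interval -0.61 to 0.09; limma adjusted p = 1.00). PDCD5 stood at -0.13 (SE 0.09, 95% confidence interval -0.34 to 0.07) and ZNF536 at 0.15. The PDCD5 groups did not overlap, which held for 2.82% of all genes. C19orf12, POP4 and PLEKHF1 were tested neighbours with negative estimates, and each interval included 0. Their difference from CCNE1 was not tested, and copy number is not measured by these arrays.

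The genes whose profile over the 8 arrays lay nearest to that of CCNE1 were ELF4, EGOT and DIPK1A. Their centred levels differed from those of CCNE1 by 0.063, 0.073 and 0.074 log2 units on average, among 7887 candidate genes that varied at least as much as CCNE1 (SD 0.16 over all arrays). ELF4 read 10.48, 10.27, 10.48 and 10.59 in siHBO1, against 10.42, 10.17, 10.11 and 10.23 in siCTRL. DIPK1A had a difference of 0.30 (limma adjusted p = 0.868). Because these genes were picked for nearness to CCNE1, a positive difference follows from the choice and is not a separate result. All 3 share the arrays and normalization of CCNE1.

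**Figure D4:**
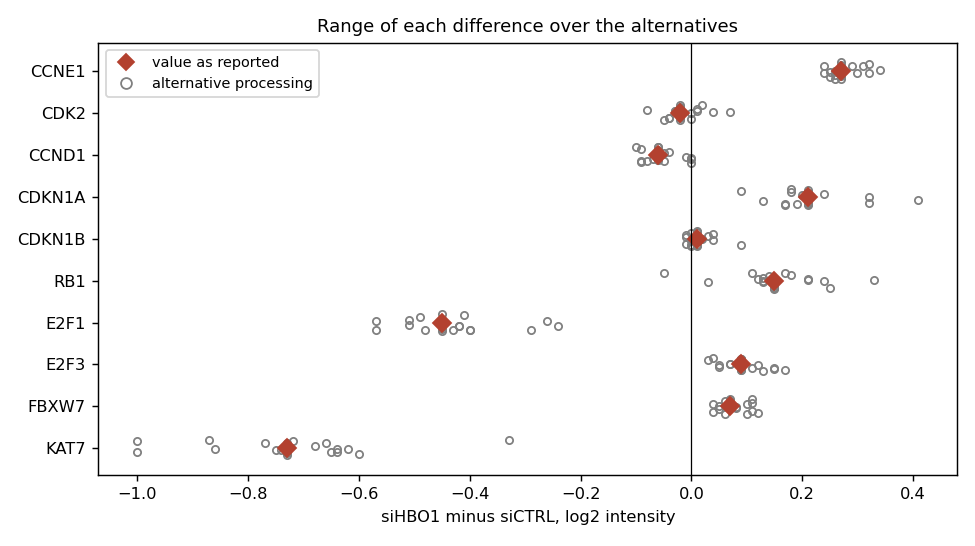
Difference between siHBO1 and siCTRL (horizontal axis, log2 intensity) for the 9 switch genes and KAT7, as reported (diamonds) and under 22 alternatives of processing or of arrays used (circles). CCNE1 runs from 0.24 to 0.34 and E2F1 from -0.57 to -0.24, each on one side of 0, whereas CDK2, CDKN1B and RB1 have values on both sides and CCND1 runs from -0.10 to just past 0.

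Under the 22 alternatives tried, none of the 9 genes passed. CCNE1 stayed between 0.24 and 0.34 with limma adjusted p-values from 0.368 to 1.00. E2F1 stayed between -0.57 and -0.24, with limma adjusted p-values from 0.491 to 1.00. CDKN1A ran from 0.09 to 0.41, E2F3 from 0.03 to 0.17 and FBXW7 from 0.04 to 0.12, all positive. CDK2, CDKN1B and RB1 took both signs, and so did CCND1, whose turned values round to 0.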

How the data were processed

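The authors deposited a non-normalized intensity per probe and array, with its background, and a detection p-value beside it. GenomeStudio and lumi are the tools listed, per the submitters' processing notes, with neither version nor role. The table of values the authors processed, on a log2 or similar scale, served as an alternative; those of both replicate 4 arrays form a set of their own (column medians 6.63 against 6.57).

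Intensities of 47312 probes were corrected with nec of limma 3.58.1 (a normexp model fitted through the detection p-values, with offset 16). Quantile normalization and log2 transformation followed, in R 4.3.3 with the package data.table (1.17.8). A probe was kept where 4 or more of 8 arrays had a detection p below 0.05 (21377 probes). The brightest kept probe by mean level stood for its gene. Background multiples divide a deposited intensity by that array's median over probes with a detection p above 0.5. Groups were compared as siHBO1 minus siCTRL by lmFit and eBayes, 2-sided, with Benjamini-Hochberg adjustment over 17297 genes. The procedure was tested on simulated data with independent noise per gene and array, which lack what same-numbered arrays share here. Symbols came from the platform annotation (30108 probes with 1 symbol, 8 with several, 17196 with none listed), updated through Entrez identifiers.

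Deviations from the group means correlated across genes between same-numbered arrays at 0.783, 0.324, 0.397 and 0.217 for replicates 1 to 4. Each is over 0.1, so numbers were taken as pairs for the block, although for replicates 2 to 4 another number correlated as highly (up to 0.404). The labels do not say what a number shares. Counts of pairs and values with the block therefore rest on an assumed pairing. Pairwise correlations of log2 intensities were 0.982 to 0.997, so no array was a copy. The number of arrays limits the precision.

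A further gene list is not reported here. The members and lists were chosen with earlier results of these data known. All members were described. Of each list, genes past the threshold or else the 3 with the smallest p were named. C19orf12 and POP4 were named after their values were seen, for their place near CCNE1.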

Additional observations from a re-analysis of the deposited data

Results flagged for a closer look

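In 3 of 26 groups of 4 arrays (13 probes in siHBO1 and siCTRL), 1 array lay far from the others by Dixon's criterion, of which chance gives about 1 in 20. For E2F1 it was the array labelled siHBO1 replicate 4, at 7.41 on the log2 scale against 7.98 to 8.08 on the other siHBO1 arrays; KAT7 on that array lay within the siCTRL range. For the dimmer CDK2 probe ILMN_1653443 it was siHBO1 replicate 1, at 7.52 against 8.21 to 8.33. For the bright CCNE1 probe it was siCTRL replicate 1, at 13.22 against 13.03 to 13.05 on the other siCTRL arrays. Both replicate 1 arrays also stood apart over all genes.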

How the results depend on the processing

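Of the 9 tested genes, 0 passed in any of the 22 alternatives, and with the replicate block all 9 calls were as without it. The count over all genes was 6. It was 58 with the replicate block, 31 with that block and without both replicate 4 arrays, 18 without both replicate 1 arrays, 18 with eBayes trend and robust, 16 without background correction and 11 with offset 50. It was 0 with a term for the array set, median scaling, no normalization, the authors' values or both replicate 4 arrays left out, settings in which limma gave 169 to 637 genes an unadjusted p under 0.05. Leaving out 1 array gave 0 to 5 (516 to 977 unadjusted). List genes past the threshold were 5; they were 18 with the replicate block. In settings chosen for this count after seeing the data, they were 13 with that block and without both replicate 4 arrays, 9 without both replicate 1 arrays, and 0 with the array set term, median scaling, no normalization, the authors' values or both replicate 4 arrays left out. Leaving out 1 array gave 0 to 2: 2 without either replicate 1 array and 0 without any of the other 6. Signs turned for CDK2 (0.01 with median scaling, 0.07 as the mean of its probes, 0 without both replicate 4 arrays, with or without the block, and between -0.08 and 0.04 leaving out 1 array), CDKN1B (-0.01 without both replicate 4 arrays, with or without the block, and -0.01 to 0.04 leaving out 1 array), CCND1 (rounding to 0 without both replicate 4 arrays, with or without the block) and RB1 (-0.05 to 0.33 leaving out 1 array). The causes were not tested. Dim probes (E2F1, KAT7, the second CCNE1 and CDK2 probes) lie within 3.40 times background, which limits their precision.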
